A study of Mus musculus with 4 samples.

Results

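AP-1 and BATF family transcription factors were followed across the T cells (Tc) and the other cells of 4 spleen libraries. The members were 10 genes chosen by symbol, of 32285 genes in the table: the FOS genes Fos, Fosb and Fosl2, the JUN genes Jun, Junb and Jund, the BATF gene Batf, the large MAF gene Maf, the stress-induced gene Atf3, and Irf4, which encodes a partner of BATF. All 10 symbols were found, each in 1 row.

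BALB/c recipients of 7 to 12 weeks received total body irradiation, 10000 WEHI-3B cells, a mouse myelomonocytic leukemia line, and 5000000 bone marrow cells from C57BL/6 donors, followed on day 2 by 200000 donor Tc. In all 4 recipients the donor cells carried loxP-flanked Havcr2, the gene for the inhibitory receptor TIM-3. In the control group (Havcr2fl/fl, n = 2 mice) there was no cre, and in the other group (Havcr2fl/fl;E8icre/+, n = 2 mice) the E8i element drove cre, which acts in CD8+ cells. Spleens were taken on day 23, and each mouse gave 1 single-cell RNA library. The labels name isolation with a pan-Tc kit, whereas the paper describes the donor Tc as flow-sorted. Values of the 4 libraries are given below in a fixed order, with the libraries labelled Havcr2fl/fl;E8icre/+ replicates 1 and 2 before those labelled Havcr2fl/fl replicates 1 and 2. Levels are unique molecular identifiers (UMIs) of a gene per 1000000 UMIs of the same cells (CPM). A UMI counts a molecule caught at its 3′ end, so that no division by gene length was made.

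AP-1 is a dimer of basic leucine zipper (bZIP) proteins, in which a JUN protein pairs with another JUN, a FOS or a BATF protein and binds DNA. FOS, FOSB and JUN genes are switched on within minutes of TCR signals, growth factors or stress and are read out as immediate early genes, which also makes them sensitive to how a tissue is handled. BATF has no activation domain of its own and, with JUN proteins and IRF4, binds composite sites near genes of effector and exhausted Tc. MAF drives cytokine genes in CD4+ helper cells and IL10 in several Tc subsets.

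The libraries held 1511 to 6737 barcodes and 17693991 to 55045903 UMIs on genes. Of 15784 barcodes, 11507 passed the filters, and any pair of libraries shared 1 to 6 barcodes. Clusters with T cell markers held 6765 cells, of which 4257 were CD8+ and 1753 CD4+ by their own Cd8a, Cd8b1 and Cd4 UMIs, while 220 had UMIs of both and 535 of neither. Although the libraries were made from isolated Tc, 4742 cells lay outside the Tc clusters. A pair of clusters of cycling cells with Car1 or Hebp1 among their leading genes held 759 and 697 of the 2501 such cells of the library labelled Havcr2fl/fl replicate 2, against 34 to 251 each in the other libraries. Havcr2 was at 61.2, 7.91, 54.8 and 114 CPM in CD8+ Tc. The library labelled Havcr2fl/fl;E8icre/+ replicate 1 thus lay above a control library, against its label, and whether these 3′ tags lie in the deleted part is not given in the sources used here. Genotype differences are therefore also given without it for the members they turn on.

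The 10 genes lie on 7 chromosomes of GRCm38. Fos (chr12:85473890-85477273, plus strand) and Batf (chr12:85686669-85709087, plus strand) lie 209 kb apart. Jun (chr4:95049034-95052222), Junb (chr8:84974484-84978718), Fosb (chr7:19302696-19310051), Maf (chr8:115682942-115707794) and Atf3 (chr1:191170296-191218039) lie on the minus strand, and Jund (chr8:70698949-70700616), Fosl2 (chr5:32135801-32157842) and Irf4 (chr13:30749226-30766976) on the plus strand. Promoter sequences from RefSeq (GRCm38.p6) were matched for 9 of 10 members, all but Maf. The 130 bases before the RefSeq start are shown for the 5 members that are commonly read as stress or immediate early genes. Each stretch holds letters that match a site marked in capitals. Capitals mark TGACG (on the minus strand CGTCA), the core of a cyclic AMP response element, or TGACATCA, the variant site of Jun.
Fos, chr12:85473760-85473889, plus strand: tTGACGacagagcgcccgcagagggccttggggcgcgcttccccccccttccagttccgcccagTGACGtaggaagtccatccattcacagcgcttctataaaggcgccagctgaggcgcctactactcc
Fosb, chr7:19310046-19310175, minus strand: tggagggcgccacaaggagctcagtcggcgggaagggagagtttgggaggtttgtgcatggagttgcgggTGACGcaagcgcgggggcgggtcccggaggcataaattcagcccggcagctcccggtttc
Jun, chr4:95052223-95052352, minus strand: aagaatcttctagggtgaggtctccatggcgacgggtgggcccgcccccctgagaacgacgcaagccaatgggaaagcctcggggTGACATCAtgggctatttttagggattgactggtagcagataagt
Junb, chr8:84978749-84978878, minus strand: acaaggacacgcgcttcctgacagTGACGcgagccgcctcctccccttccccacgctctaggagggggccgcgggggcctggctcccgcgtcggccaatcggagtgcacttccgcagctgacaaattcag
Atf3, chr1:191183334-191183463, minus strand: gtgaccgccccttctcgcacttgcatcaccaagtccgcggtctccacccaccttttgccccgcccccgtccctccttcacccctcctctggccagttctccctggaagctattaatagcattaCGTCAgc
TGACG was found on either strand within 250 bases before the start in 5 of the 9 member promoters (Fos, Fosb, Junb, Batf and Atf3) and in 17.8% of all 32851 promoters. TGACATCA was found in Jun alone of the 9, and in 2.93% of all promoters. It was searched as the variant site of Jun, so its match there was given beforehand. The AP-1 site TGACTCA (4.46%), the full element TGACGTCA (1.55%), which contains TGACG, and the CArG box (1.47%) were in none of the 9. Nor was the AICE, the composite site of BATF and IRF4 (0.0974%). Bases beyond these 250 were not searched, so sites further upstream would be missed. For Jund the bases searched ended at chr8:70697738, before the gene start given above. For Atf3 and Fosl2 they lay inside the gene interval given above, and for Batf, Irf4 and Fosb the last of them did. A match to these letters is a description and not a binding site.

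Members differed widely in level within Tc. Of all member UMIs in Tc, Jund gave 45.5%, Maf 19.9%, Batf 18.3% and Junb 12.6%, whereas Fos gave 0.17% (68 UMIs) and Atf3 0.02% (7 UMIs). CD8+ Tc carried the members as Jund (54.3%), Batf (21.9%), Junb (12.6%) and Maf (7.23%). In CD4+ Tc, Maf took 33.7%, close to the 35.5% of Jund. Outside the Tc clusters Jund gave 63.0%, Junb 13.5% and Jun 8.25%, and Fos and Fosb gave 3.75% and 3.02%.

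**Figure D1:**
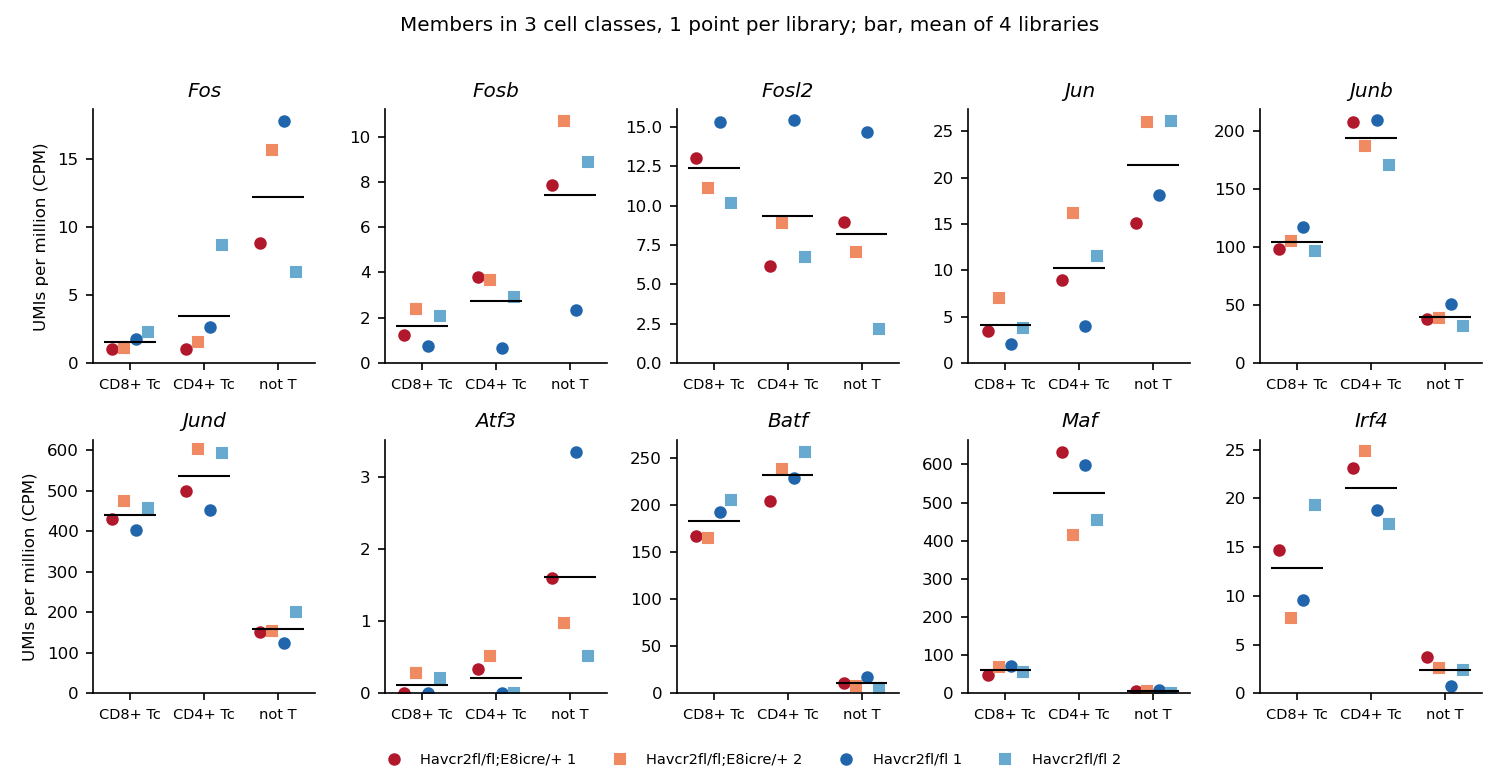
Level of each member (CPM from 0, with an axis of its own in each panel) in CD8+ Tc, CD4+ Tc and cells outside the Tc clusters, with 1 point per library and the mean as a bar. Jund, Junb and Batf sit higher in all 8 sums of Tc than outside, and Maf is at 48.0 to 71.2 CPM in CD8+ and 414 to 633 CPM in CD4+ Tc. The means of Jun, Fos and Fosb sit highest outside the Tc clusters.

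Tc were compared with the other cells of the same mouse to see which members are carried by Tc in these spleens. Of 9 members tested, 5 were higher in Tc (Maf, Batf, Irf4, Junb and Jund) and 3 were lower (Fos, Fosb and Jun), against 36.0% of all genes higher and 40.1% lower. Since 76.1% of the 12284 genes tested were called here, the number of calls is not particular to the members. In such sums, fewer cells of a type and less RNA per cell cannot be told apart. The p-values measure the spread between these mice only.

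Batf was at 157, 180, 197 and 205 TMM-scaled CPM in Tc and at 10.7, 8.90, 19.5 and 6.01 in the other cells. All 4 Tc sums lay above all 4 others, as sums of 66.9% of all genes did not overlap, with a difference of 4.16 on the log2 scale (SE 0.31, adjusted p = 9.0e-05, edgeR quasi-likelihood test with Benjamini-Hochberg adjustment, as for all tests below). Irf4, which is needed for the expansion of effector Tc, was at 15.2, 12.2, 13.6 and 19.6 TMM-scaled CPM in Tc and at 3.66, 2.80, 0.820 and 2.73 outside them. The groups did not overlap, at 2.60 on the log2 scale (SE 0.31, adjusted p = 0.00053). Maf had the greatest difference of the members, with 200, 194, 227 and 155 TMM-scaled CPM in Tc and 6.90, 6.1, 10.9 and 0.821 outside them, or 5.30 on the log2 scale (SE 0.54, adjusted p = 0.00027).

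Of the JUN genes, Junb and Jund moved opposite to Jun. Junb, which restrains or replaces JUN in many dimers, was at 115, 133, 139 and 109 TMM-scaled CPM in Tc and at 37.1, 42, 56.4 and 35.5 in the other cells (log2 fold change 1.56, SE 0.09, adjusted p = 4.9e-05). Jund, the JUN gene that is expressed without a stimulus in most tissues, was at 404, 500, 403 and 467 against 148, 167, 137 and 225 TMM-scaled CPM (log2 fold change 1.41, SE 0.11, adjusted p = 0.00011). Jun was at 5.04, 11.8, 2.73 and 6.30 TMM-scaled CPM in Tc and at 14.8, 28.3, 20 and 29.2 outside them. It was lower in Tc in 4 of 4 mice without overlap (log2 fold change -1.87, SE 0.26, adjusted p = 0.0010).

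Both quickly induced FOS genes were low in Tc. Fos was at 1.05, 1.23, 1.93 and 3.66 TMM-scaled CPM in Tc, from 12 to 25 UMIs per library, and at 8.63, 17.1, 19.7 and 7.49 outside them. The sums were apart at -2.77 on the log2 scale (SE 0.47, adjusted p = 0.0022). Fosb was at 1.61, 2.39, 0.803 and 2.05 against 7.68, 11.6, 2.56 and 9.90 TMM-scaled CPM (log2 fold change -2.19, SE 0.18, adjusted p = 0.00013). Fosl2, the FOS gene with slower kinetics, was higher in Tc in 3 of 4 mice at 0.55 on the log2 scale (SE 0.35, adjusted p = 0.20). Atf3 was too low to be tested, with 0 to 4 UMIs per library in Tc and 17 to 38 outside them. The 8 calls held under all 13 alternatives, with ranges of -3.36 to -1.21 for Fos, -2.31 to -0.66 for Fosb and -2.14 to -1.02 for Jun.

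**Figure D2:**
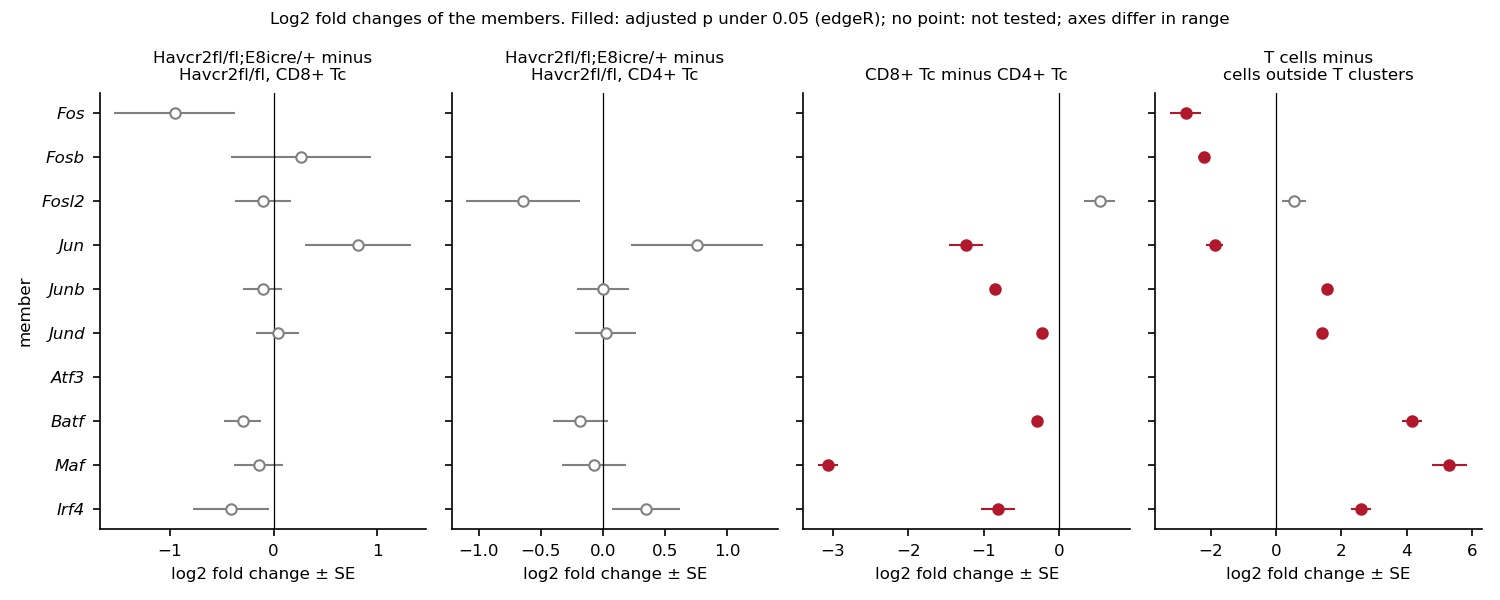
Log2 fold change of each tested member (horizontal axis, with the SE as a line) in the comparisons of genotypes in CD8+ and in CD4+ Tc, of CD8+ with CD4+ Tc and of Tc with other cells, on axes of different range. Filled points passed an adjusted p of 0.05; those for Tc against other cells run from -2.77 for Fos to 5.30 for Maf, and no point of the genotype comparisons is filled.

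The other genes of the network were read from lists. Of 26 other immediate early genes tested, 21 were higher and 3 lower in Tc (median log2 fold change 1.85, against -0.06 for all genes). The 4 with the greatest difference were Egr2 (5.09), Nr4a2 (4.98), Dusp5 (4.94) and Nr4a3 (4.85), all genes induced through the TCR. Fos, Fosb and Jun thus lay on the opposite side from most of the immediate early list. Egr1 had a UMI in 4.61% of Tc and 0.825% of other cells after thinning to 2000 UMIs. Of 13 heat shock genes, 1 was higher and 10 were lower in Tc (median -0.90), among them Hspd1 (-2.0) and Hsp90aa1 (-1.81). Of 20 other bZIP genes and partners, 8 were higher and 9 lower, with Nfe2 (-5.37) and Batf2 (-5.00) lowest and Bach2 (3.50) and Jdp2 (2.28) highest. T cell genes known as AP-1 or BATF targets were higher for 19 of 20 (median 5.57), and the list was made of Tc genes. Of 15 TCR partner factors, 8 were higher and 4 lower, with Nfatc2 at 4.41, Nfatc1 at 4.21, Rel at 2.01 and Myc at -2.56.

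Outside Tc, the FOS genes and Jun were highest in neutrophil-like or in B or plasma-like cells. Fos reached 87.7 ± 34.8 CPM (SD, n = 4) in neutrophil-like cells, with a range of 57.3 to 138, and 75.4 ± 19.6 (n = 3) in B or plasma-like cells, which do not differ beyond their spread. Fosl2 was at 80.4 ± 23.7 CPM (n = 4) in neutrophil-like cells, above the 23.9 ± 4.35 (n = 4) of myeloid progenitor-like cells. Fosb was at 139 ± 35.0 CPM (n = 3) in B or plasma-like cells, 76.2 ± 37.0 (n = 2) in dendritic-like and 74.2 ± 41.0 (n = 3) in basophil or mast-like cells. These 3 cell types ranged from 49.8 to 172 in single libraries and overlapped in part.

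B or plasma-like cells also carried the greatest Jun level of any named cluster, 119 ± 25.9 CPM (n = 3), with basophil or mast-like cells next outside Tc at 45.3 ± 7.30 (n = 3). Their Irf4 level of 107 ± 62.9 CPM (n = 3), from 56.5 to 178, was the greatest of all clusters, as is known for plasma cells. Junb was at 177 ± 32.8 CPM (n = 2) in dendritic-like and 160 ± 39.7 (n = 4) in neutrophil-like cells, the levels of Tc. In contrast, erythroid-like cells in 2 clusters held Junb at 6.66 ± 5.78 and 14.8 ± 13.2 CPM (n = 4) and Irf4 at 0 and 0.890 CPM. Jund was lowest in myeloid progenitor-like cells with 44.0 ± 8.81 CPM (n = 4) and was at 246 ± 68.8 and 291 ± 67.3 (n = 4) in the erythroid-like clusters. Atf3 had means under 5 CPM in every cluster, with 4.08 ± 3.36 (n = 4) in stem and progenitor-like cells as the highest mean. Clusters with under 20 cells in a library give no level for it, so that n falls below 4.

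Shares of cells with a UMI were compared after each cell was thinned to 2000 UMIs, which left out 435 of 6765 Tc, 136 of 4742 other cells and 43 of 1118 erythroid-like cells. Median depths before thinning were 4588 UMIs in Tc, 16727 in other cells, and 7383 and 4464 in the 2 erythroid-like clusters. Batf was found in 28.6% of Tc (95% Wilson interval 27.5 to 29.7) and 1.02% of erythroid-like cells, against 51.2% and 2.5% unthinned. Junb was found in 22.2% (21.2 to 23.3) against 1.58%, and Maf in 24.5% (23.5 to 25.6) against 1.02%. Jund was found in 55.7% (54.5 to 56.9) of Tc and 39.1% (36.2 to 42) of erythroid-like cells.

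Irf4 was seen in 3.11% of Tc (2.71 to 3.57) and in 0 of 1075 erythroid-like cells, which at 3 counts of that total allows a share of cells with a UMI of up to 0.279%. Fosl2 was found in 2.26% of Tc and Jun in 1.34%, against 0.093% and 0.558% of erythroid-like cells. Fos was found in 15 of 6330 Tc (0.237%, 0.144 to 0.391), Fosb in 22 (0.348%) and Atf3 in 4 (0.0632%). The Fos share in Tc lies within the interval of the erythroid-like cells (1 of 1075, 0.0164 to 0.525). That interval rests on 1 cell and is wide, so it cannot decide whether the Fos UMIs of Tc are background. Among other cells, Fos was seen in 1.89% and Jun in 3.82%. At least 3 of the 5 genes Fos, Fosb, Jun, Junb and Atf3 were found together in 0 of 4052 CD8+ Tc, in 0.0601% of CD4+ Tc and in 0.261% of other cells. Intervals cover counting error only.

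**Figure D3:**
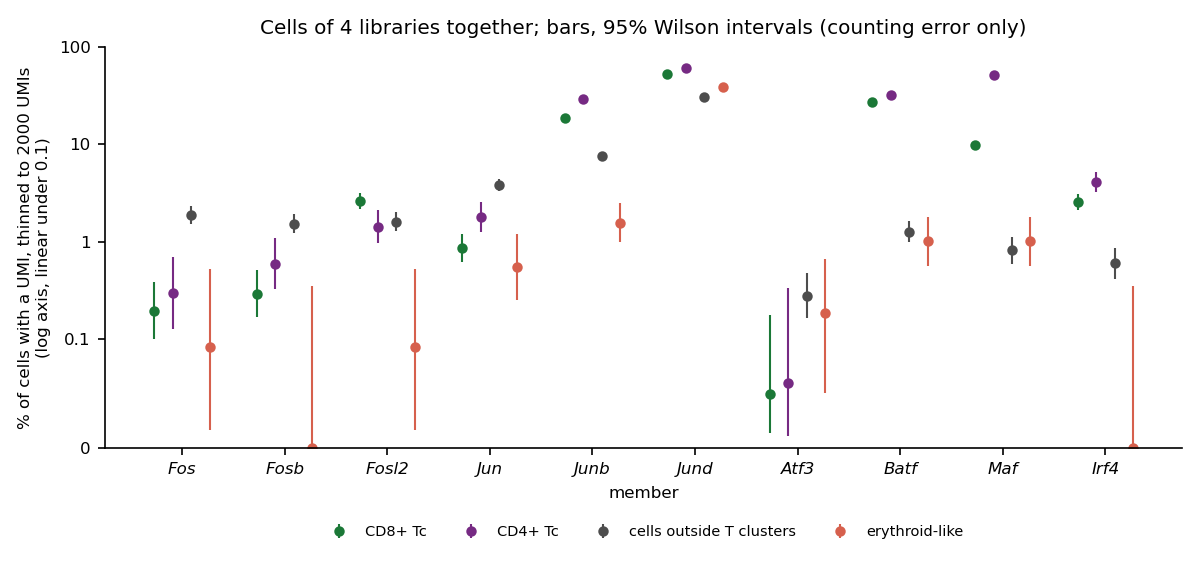
Percent of cells with at least 1 UMI of each member after thinning to 2000 UMIs (log axis, linear under 0.1) in CD8+ Tc, CD4+ Tc, other cells and erythroid-like cells, with 95% Wilson intervals as lines. Maf is at 9.92% of CD8+ and 52.2% of CD4+ Tc, and Fos, Fosb and Atf3 lie under 1% in both.

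CD8+ and CD4+ Tc of the same mice were compared next. Of 7 members tested, 6 were lower in CD8+ than in CD4+ Tc and none was higher, whereas 12.3% of 10313 genes tested were lower (24.4% in either direction). Maf was at 47.3, 71.2, 73.7 and 56.7 TMM-scaled CPM in CD8+ and at 596, 411, 598 and 460 in CD4+ Tc. Every CD4+ sum lay above every CD8+ sum (log2 fold change -3.06, SE 0.13, adjusted p = 5.0e-09). Junb was at 96.7, 109, 121 and 99.5 against 196, 186, 210 and 173 TMM-scaled CPM, again apart (log2 fold change -0.85, SE 0.07, adjusted p = 6.6e-07). Of all genes, 15.1% had sums that did not overlap.

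The others overlapped between mice and differed within each mouse. Jun was lower in CD8+ Tc in 4 of 4 mice, at 3.46, 7.34, 2.08 and 3.83 against 8.45, 16.1, 4.03 and 11.7 TMM-scaled CPM (log2 fold change -1.24, SE 0.22, adjusted p = 0.0011). Batf was lower by less, at 165, 172, 200 and 211 against 192, 237, 228 and 260 TMM-scaled CPM (log2 fold change -0.30, SE 0.06, adjusted p = 0.0033, lower in 4 of 4). Jund fell by 0.22 on the log2 scale (SE 0.06, adjusted p = 0.012, 4 of 4 mice), with 417 to 493 against 453 to 600 TMM-scaled CPM. The call of Jund held under 9 of 13 alternatives. Among those in which it was lost, the library labelled Havcr2fl/fl;E8icre/+ replicate 2 (adjusted p = 0.087) or that labelled Havcr2fl/fl replicate 2 (0.064) was left out.

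Irf4 was lower in CD8+ Tc in 3 of 4 mice, at 14.5, 8.07, 9.89 and 19.8 against 21.8, 24.6, 18.8 and 17.6 TMM-scaled CPM, and the library labelled Havcr2fl/fl replicate 2 went the other way. Its log2 fold change of -0.81 (SE 0.22, adjusted p = 0.016) did not pass without the library labelled Havcr2fl/fl;E8icre/+ replicate 2 (adjusted p = 0.16) or with DESeq2 (0.081). Fosl2 was the 1 tested member with a higher value in CD8+ Tc, in 4 of 4 mice, at 12.8, 11.6, 15.9 and 10.4 against 5.85, 8.81, 15.4 and 6.84 TMM-scaled CPM (log2 fold change 0.53, SE 0.21, adjusted p = 0.079). It passed under 2 of 13 alternatives, among them without the library labelled Havcr2fl/fl replicate 1 (adjusted p = 0.048). Fos, Fosb and Atf3 were not tested, with 0 to 17 UMIs per sum.

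Of 25 other immediate early genes, 2 were higher and 14 lower in CD8+ Tc (median log2 fold change -0.37, against 0.00 for all genes), with Egr3 (-1.63), Egr2 (-1.52) and Dusp1 (-1.38) lower and Nr4a2 (1.93) higher. Of 18 target genes, 6 were higher and 6 lower, with Il21 (-3.16), Il2ra (-3.05), Icos (-1.68) and Gzmb (1.94) the most different. Of 17 other bZIP genes and partners, 4 were higher and 1 lower: Irf8 (1.53), Mafg (-0.99), Atf6 (0.67) and Bach2 (0.64) led. Of 15 TCR partner factors, 1 was higher, Myc at 0.83, and 5 were lower, among them Nfkb1 (-0.82), Rel (-0.68) and Nfatc2 (-0.62). Of 12 heat shock genes, 2 were lower, Hspa1b (-1.38) and Dnaja1 (-0.26).

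Within CD8+ Tc, states were taken from clusters built without the members, and levels are given as descriptions. Batf was at 253, 243, 231 and 306 CPM in precursor exhausted (TPEX)-like cells, which carried Tcf7, Slamf6, Id3 and Xcl1, and at 52.6, 74.5, 54.5 and 88.2 CPM in short-term effector-like cells, which carried Klrg1, Cx3cr1 and Zeb2. The means were 258 ± 33.0 and 67.4 ± 17.0 (SD, n = 4), and all 4 libraries showed this order without overlap. Between these ends the 7 other clusters ran from 149 ± 18.7 to 213 ± 42.8 CPM. The highest of these was an unnamed cluster led by Ltf, Ccl3 and Glp1r, which overlapped TPEX-like cells. It had 6 of the 9 markers of terminally exhausted cells raised (Pdcd1, Lag3, Eomes, Nr4a2, Entpd1 and Rgs16). Its 10 leading genes held the effector marker Gzma and none of those 6, so it was given no name. They also held the neutrophil marker Ltf, which had no part in the naming of CD8+ clusters.

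Junb was at 151 ± 37.1 CPM (n = 4) in interferon-stimulated-like, 144 ± 6.90 in an unnamed cluster led by Fcer1g and Ckb, and 140 ± 13.6 in TPEX-like cells, which did not differ beyond their spread. Cycling cells held the least Junb, 56.1 ± 4.24 CPM (n = 4), and their highest library (59.8) lay below the lowest of the next cluster (62.9). Jund ran from 325 ± 73.2 CPM in short-term effector-like cells to 515 ± 35.3 in the Ccl3 cluster. Its ratio of highest to lowest mean (1.59) was smaller than that of Batf (3.83) or Junb (2.69). Maf was greatest in Teff-like cells (142 ± 46.9 CPM, n = 4), which carried Gzmk and Ccl5, and in TPEX-like cells (123 ± 40.0), and least in cycling cells (32.4 ± 15.1).

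Irf4 was at 25.0 ± 13.6 CPM (n = 4) in the Ccl3 cluster, with 6.62 in the library labelled Havcr2fl/fl;E8icre/+ replicate 2 and up to 39.4 in others, and at 6.23 to 14.9 in the other clusters. Fosl2 was highest in short-term effector-like cells, 20.9 ± 2.31 CPM (n = 4), next to the Fcer1g cluster at 18.1 ± 2.33. Thus, in the cluster means, Batf was lowest and Fosl2 highest in short-term effector-like cells, where Fosl2 did not differ from the Fcer1g cluster beyond the spread. Jun stayed between 2.5 and 8.53 CPM and Fos between 0 and 2.84. Of 8 neighboring pairs in the order of clusters, 2 differed beyond the spread for Junb, 1 each for Batf and Jund, and 0 for the 7 other members.

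**Figure D4:**
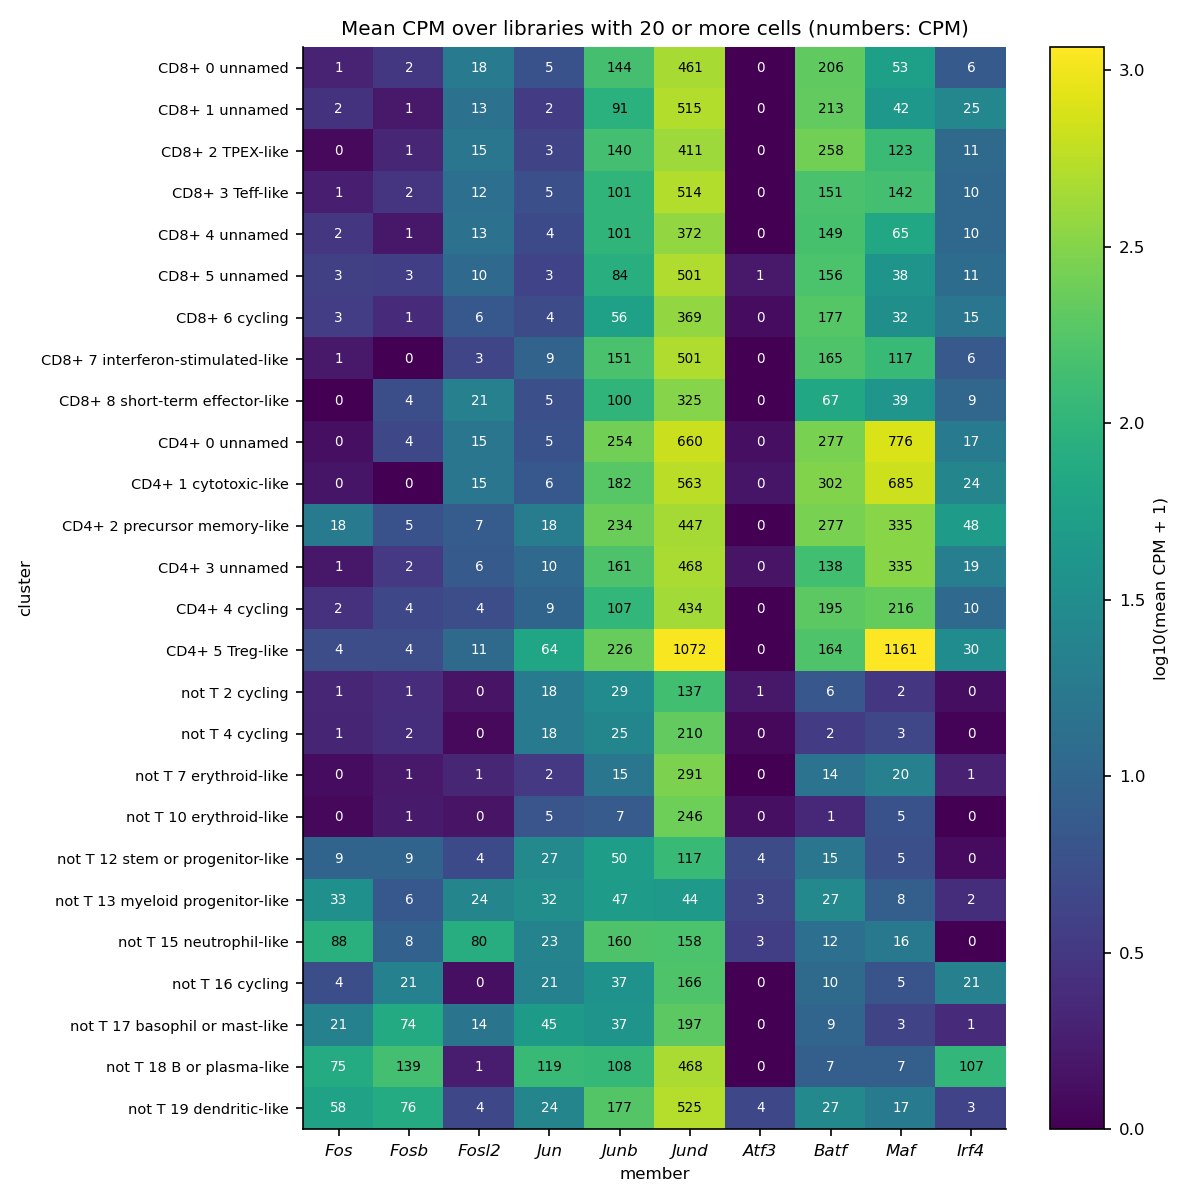
Heat map of the mean CPM of each member (columns) in each cluster of CD8+ Tc, CD4+ Tc and cells outside the Tc clusters (rows), over libraries with 20 or more cells, with colour as log10(mean CPM + 1) and the mean printed as a whole number. Batf is at 67.4 in short-term effector-like cells against 258 in those called TPEX-like, Treg-like cells hold the highest Maf, Jund and Jun of the Tc clusters, and Fosb, Jun and Irf4 are highest in B or plasma-like cells.

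In CD4+ Tc, the levels of Maf, Jund and Jun were highest in Treg-like cells. Treg-like cells, which carried Foxp3 and Il2ra, had levels in both libraries labelled Havcr2fl/fl;E8icre/+ only, since those labelled Havcr2fl/fl held 4 and 16 such cells. Their Maf was at 1328 and 994 CPM, Jund at 934 and 1210, and Jun at 60.0 and 67.7. The next Jun level, in precursor memory-like cells, was 18.2 ± 9.87 CPM (n = 4), which lay apart. Whether Treg-like cells of the other genotype hold such levels cannot be told from these libraries.

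In an unnamed CD4+ cluster led by Prxl2a, Igfbp7 and Ebi3, Maf was at 776 ± 157 and Junb at 254 ± 42.7 CPM (n = 4). The lowest mean Jun of the CD4+ clusters was there too, 4.86 ± 3.59 CPM, within the 2.5 to 8.53 of the CD8+ cluster means. Jun was thus not higher in every CD4+ cluster than in CD8+ clusters. Cytotoxic-like CD4+ cells held the most Batf, 302 ± 47.4 CPM (n = 4), with precursor memory-like cells at 277 ± 23.0, and an unnamed cluster led by Ifitm1 and Ifitm2 held the least, 138 ± 21.1. Precursor memory-like cells, which carried Tcf7, Slamf6 and Cxcr5, were highest in Irf4 with 47.8 ± 16.4 CPM (n = 4). They also held most of the Fos UMIs, at 0, 4.6, 15.9 and 50.4 CPM from at most 8 UMIs, and the value of the library labelled Havcr2fl/fl replicate 2 set the mean. Cycling CD4+ cells were lowest in Maf (216 ± 76.7 CPM), Junb (107 ± 25.0) and Irf4 (10.1 ± 5.22), with n = 3. Beyond the spread differed 2 of 5 neighboring pairs for Maf and for Junb, and 1 each for Batf, Jun and Jund.

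The states were then compared by gates on UMIs of marker genes in CD8+ Tc without Mki67 or Top2a UMIs. The Tcf7/Slamf6 gate held 587 cells, the Cx3cr1/Klrg1 gate 247, and the Pdcd1/Lag3 gate, with neither of the other marker pairs, 1270. Each gate asked for at least 1 UMI of its markers, so a missed UMI can place a cell in another gate. The Tcf7/Slamf6 and Cx3cr1/Klrg1 gates excluded each other's markers but set no condition on Pdcd1 or Lag3. Median depths were 4892 UMIs per cell in the Tcf7/Slamf6 gate, 3917 in the Cx3cr1/Klrg1 gate and 3986.5 in the Pdcd1/Lag3 gate. Both comparisons share the Pdcd1/Lag3 gate. Junb was at 150, 147, 143 and 152 TMM-scaled CPM in the Tcf7/Slamf6 gate and at 112, 127, 127 and 93.7 in the Pdcd1/Lag3 gate. The groups were apart, as for 9.89% of all genes (log2 fold change 0.35, SE 0.11, adjusted p = 0.025). Jund was at 393, 499, 355 and 375 against 463, 540, 460 and 541 TMM-scaled CPM, lower in 4 of 4 mice (log2 fold change -0.30, SE 0.09, adjusted p = 0.036). These were 2 of 5 members tested, where 12.4% of 7920 genes were called, 6.39% higher and 6.05% lower.

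Batf was at 203, 202, 210 and 247 against 172, 161, 209 and 240 TMM-scaled CPM, higher in the Tcf7/Slamf6 gate in 4 of 4 mice but not past the threshold (log2 fold change 0.17, SE 0.09, adjusted p = 0.30). Without the library labelled Havcr2fl/fl;E8icre/+ replicate 1 the adjusted p was 0.18 for Junb and 0.13 for Jund, and without that labelled Havcr2fl/fl replicate 2 it was 0.12 and 0.17. Without the library labelled Havcr2fl/fl;E8icre/+ replicate 2 it was 0.054 for Jund. With DESeq2 neither passed (0.37 and 0.14).

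In the Cx3cr1/Klrg1 gate, 1 of 4 members tested was called, Batf, and it was lower than in the Pdcd1/Lag3 gate (7.22% of 6345 genes were called and 2.71% were lower). Batf was at 154, 101, 119 and 201 against 176, 166, 215 and 245 TMM-scaled CPM, lower in 4 of 4 mice with overlap between mice (log2 fold change -0.46, SE 0.13, adjusted p = 0.026). The sums rest on 25 to 56 Batf UMIs in the first gate. The call was lost without the libraries labelled Havcr2fl/fl;E8icre/+ replicate 2 (adjusted p = 0.14), Havcr2fl/fl replicate 1 (0.25) and Havcr2fl/fl replicate 2 (0.065), and with DESeq2 (0.26). Jund was lower in 4 of 4 mice at -0.23 (SE 0.10, adjusted p = 0.17), Junb was at 0.11 (adjusted p = 0.81) and Maf at 0.21 (adjusted p = 0.71). Fosl2 was not tested here. Without TMM scaling it was at 14.0 ± 12.9 CPM (SD, n = 4, range 0 to 29.2) in the Cx3cr1/Klrg1 gate and at 14.7 ± 2.37 in the Pdcd1/Lag3 gate. These levels rest on 0 to 7 Fosl2 UMIs per library in the first gate and 10 to 32 in the second. Such counts are too few to tell whether the Cx3cr1/Klrg1 gate shares the high Fosl2 of the short-term effector-like cluster.

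**Figure D5:**
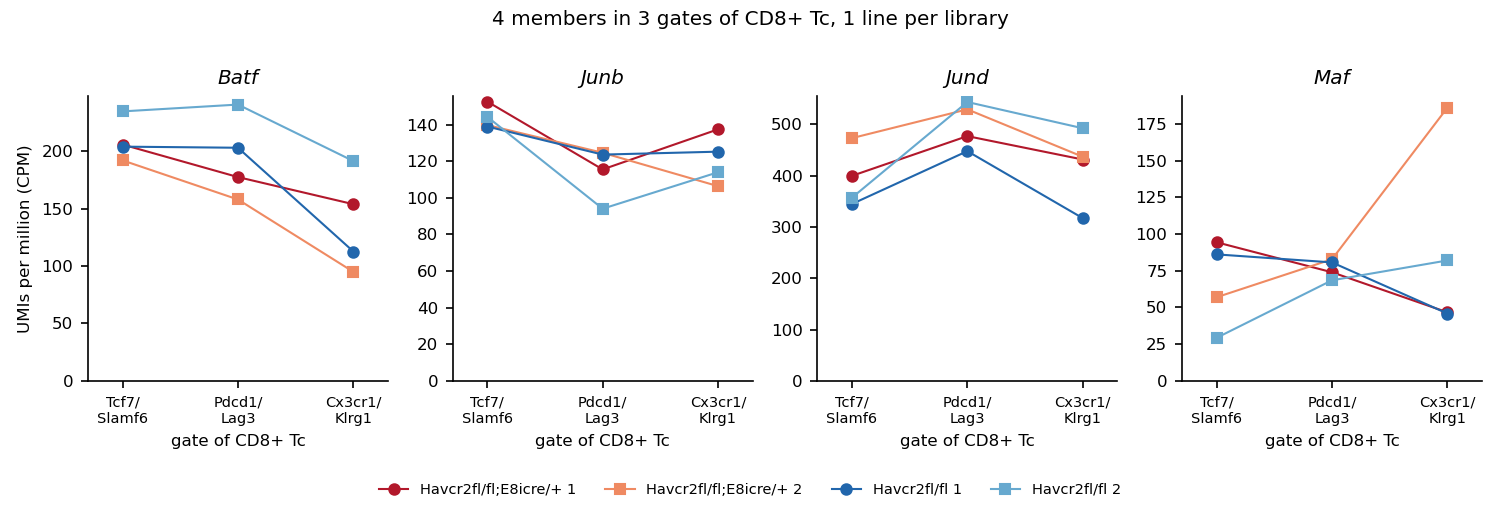
CPM, without TMM scaling, of Batf, Junb, Jund and Maf in the Tcf7/Slamf6, Pdcd1/Lag3 and Cx3cr1/Klrg1 gates of CD8+ Tc, with lines joining the gates of 1 library. Junb lies at 139 to 153 in the Tcf7/Slamf6 gate and at 94.0 to 125 in the Pdcd1/Lag3 gate.

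Erythroid markers, with all 8 summed, differed between these gates and libraries. They ran from 144 to 3354 CPM in the Tcf7/Slamf6 gate, from 126 to 5740 in the Pdcd1/Lag3 gate and from 110 to 3337 in the Cx3cr1/Klrg1 gate, in which Alas2, Klf1 and Gata1 were at 0 in 3 of 4 libraries. The 7 monocyte or macrophage markers were at 254 to 653 CPM in the Tcf7/Slamf6 gate, 646 to 797 in the Cx3cr1/Klrg1 gate and 75.0 to 128 in the Pdcd1/Lag3 gate, with Csf1r at 0 in 3, 4 and 2 of 4 libraries. They include Ly6c2, which effector CD8+ Tc also express. The part of either in the differences of Junb, Jund and Batf was not tested.

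Between Tcf7/Slamf6 and Pdcd1/Lag3 gates, 3 target genes were higher and 9 lower of 14 (median log2 fold change -0.94, all genes 0.01), with Xcl1 (2.69), Ccl3 (-1.95), Ccl4 (-1.73) and the floxed gene Havcr2 (-2.66) the most different. Of 15 other bZIP genes and partners, Bach2 was higher (1.76) and Irf8 (-1.24) and Jdp2 (-0.79) lower. Of 21 immediate early genes, 4 were higher and 3 lower, with Nr4a2 at -1.53, Dusp5 at -0.97, Gadd45b at -0.78 and Zfp36l1 at 0.79. Among 14 TCR partner factors Elk4 (0.94) and Nfkb1 (0.51) were higher and Nfatc1 (-0.51) lower, and 1 of 11 heat shock genes, Hspe1 (0.32), was higher. Between the Cx3cr1/Klrg1 and Pdcd1/Lag3 gates, 0 of 13 other bZIP genes were higher and 2 lower, Jdp2 (-1.80) and Nfil3 (-1.37). Of 16 immediate early genes 5 were higher and 3 lower, Egr1 (-1.53) most of all, and of 13 target genes 0 were higher and 5 lower. Of 12 TCR partner factors Nfatc3 (0.82) was higher and Nfatc1 (-0.52) lower, and of 11 heat shock genes 2 were higher and 1 lower.

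The genotypes were compared to see whether loss of TIM-3 in CD8+ Tc goes with a change of these factors. Of 9 members tested in CD8+ Tc none was called, where 0.0276% of 10880 genes were called and 289 had an unadjusted p under 0.05. DESeq2 also called none. Batf was at 160 and 170 TMM-scaled CPM in the libraries labelled Havcr2fl/fl;E8icre/+ and at 196 and 208 in those labelled Havcr2fl/fl. The groups did not overlap, as for 27.9% of all genes, and the means of 165 ± 7.20 and 202 ± 8.16 (SD, n = 2) differed by -0.30 on the log2 scale (SE 0.18, adjusted p = 1.00). Without the library labelled Havcr2fl/fl;E8icre/+ replicate 1 it was -0.26. Fos lay apart too, at 0.972 and 1.16 against 1.79 and 2.31 TMM-scaled CPM, but from 7 to 11 UMIs per library (log2 fold change -0.95, SE 0.58, adjusted p = 1.00), and it was -0.82 without that library.

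The other 7 tested members overlapped, from -0.41 for Irf4 to 0.81 for Jun. Jund (0.04, SE 0.21), Fosl2 (-0.10) and Junb (-0.11, SE 0.19) differed least. Without the library labelled Havcr2fl/fl;E8icre/+ replicate 1, Maf turned from -0.15 to 0.13, Irf4 went to -0.89, Fosb from 0.27 to 0.73, Fosl2 from -0.10 to -0.18, Junb to -0.012 and Jund to 0.15, with no call. Jun was at 1.28 without that library, but at 0.18 without the library labelled Havcr2fl/fl;E8icre/+ replicate 2, at 0.46 and 1.34 without those labelled Havcr2fl/fl replicates 1 and 2, and at 0.29 with doublets kept. In CD4+ Tc, where the E8i element is not meant to act, 0 of 7 were called (0.0104% of 9648 genes, 305 with an unadjusted p under 0.05, and 0 members by DESeq2). The greatest differences there overlapped between genotypes. They were 0.76 for Jun (0.086 to 1.61 under alternatives) and -0.64 for Fosl2 (-1.06 to 0.11). Irf4 alone of those tested lay apart there, as did 30.9% of all genes, at 22.2 and 25.2 against 19.1 and 18.0 TMM-scaled CPM (log2 fold change 0.35, SE 0.27, adjusted p = 1.00), or 0.44 without the library labelled Havcr2fl/fl;E8icre/+ replicate 1. Outside the Tc clusters 0 of 10 were called (0.00% of 12600 genes, 187 with an unadjusted p under 0.05, 0 members by DESeq2), and Irf4 lay apart (23.6% of all genes) at 0.80 (SE 0.64, adjusted p = 1.00), or 0.63 without that library. The effect in CD8+ Tc set against that in CD4+ Tc was called for 0 of 9 (0.0184% of 10880 genes, 471 with an unadjusted p under 0.05, 0 by DESeq2), and Irf4 differed most among the better covered members, by -0.69 (SE 0.43, adjusted p = 1.00), or -1.25 without it (adjusted p = 0.41). Fos was at 1.17 and Fosb at -0.70 in this last comparison, from at most 17 UMIs per sum. With 2 mice per genotype and SEs of 0.18 to 0.68 in CD8+ Tc, differences of the sizes seen did not pass the test, which does not show that the levels are equal.

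Single libraries stood apart for several members. In Tc, Jun was at 5.59, 12.5, 2.86 and 6.62 CPM and Fos at 1.17, 1.31, 2.02 and 3.85, so that Jun was highest in the library labelled Havcr2fl/fl;E8icre/+ replicate 2 and Fos in that labelled Havcr2fl/fl replicate 2. Fosb was at 1.79, 2.54, 0.841 and 2.16 CPM, lowest where Jun was lowest. Summed heat shock genes in Tc were at 5611, 6237, 4509 and 8060 CPM, with the same lowest library, whereas the summed immediate early list stayed at 2531, 2642, 2640 and 2567. Outside Tc, Fosl2 (8.99, 7.09, 14.7 and 2.18 CPM) and Maf (7.06, 5.61, 9.85 and 0.735) were highest in the library labelled Havcr2fl/fl replicate 1, and lowest in the replicate 2 of that group. Summed erythroid, monocyte or macrophage, and myeloid progenitor markers had the same highest and lowest library outside Tc, as did natural killer and T cell markers. Of the 6 natural killer markers only 2 or 3 were detected per library, and Ncr1 and Klra4 were at 0 in each. Erythroid markers were at 14352, 25751, 38802 and 13962 CPM, monocyte or macrophage markers at 1283, 1642, 3067 and 469.9, and myeloid progenitor markers at 1990.0, 2037, 2974 and 828. In contrast, B or plasma markers (465, 908, 86.1 and 470 CPM) and cycling markers (2617, 2443, 2294 and 3024) were lowest in the library labelled Havcr2fl/fl replicate 1. Neutrophil-like cells, with the highest Fosl2, were 82 of 1085, 49 of 750, 71 of 406 and 47 of 2501 cells outside Tc. The part of handling, of depth or of cell mix in these differences was not tested.

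Over 57 sums of Tc clusters in single libraries, the genes closest to a member in log2(CPM + 10) were sought among 5980 genes with at least 20 CPM on average. Pearson's r was 0.86 for Maf with Cd4 and with Cd5 and 0.85 with Cd6. Junb went with Traf1 (0.84), Cd53 (0.83) and Icos (0.82), and Batf with Tnfaip8 (0.83), Orai1 (0.78) and Slc22a15 (0.76). Jund went with Crlf2 (0.77), Isg20 (0.72) and Lrba (0.71), and Jun with Ncoa7 (0.63), Bmyc (0.63) and Iigp1 (0.62). Irf4 went with Nrip1 (0.61), Klhl9 (0.60) and Map3k5 (0.60), and Fosl2 with Serinc1 (0.51), Stard10 (0.50) and Camk2n1 (0.49). For Fos (Naa30, 0.46), Fosb (Ythdf2, 0.44) and Atf3 (Katna1, 0.38) the sums were too sparse for such a value to be a finding. Sums of 1 library share its depth and cells of 1 mouse, so these are descriptions. The sums span CD8+ and CD4+ clusters, which were split by Cd8a, Cd8b1 and Cd4 UMIs. An r with Cd4, or between genes that both differ between CD8+ and CD4+ Tc, therefore holds that split. Among members, Junb and Maf went together most (0.75), then Jund and Maf (0.57) and Jun and Jund (0.52).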

How the data were processed

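Spleen T cells of 4 mice were profiled with 10x Genomics 3′ single-cell RNA sequencing, 1 library per mouse. The authors deposited raw UMI counts per gene and barcode, made with Cell Ranger 6.1.2 against mm10 per the submitters' processing notes.

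Barcodes under 500 genes, under 1000 UMIs or over 10% mitochondrial UMIs were dropped, and 125 doublets called by Scrublet (scanpy 1.11.5) were removed. Clusters were made with Seurat 5.3.0 (2000 variable genes, 30 dimensions, 20 neighbors). The libraries were integrated by canonical correlation analysis before clustering. The choice of variable genes excluded the members and 3 lists: other bZIP genes and partners, immediate early genes, and heat shock genes. It also excluded the variable, diversity and joining genes of TCR and immunoglobulins, Havcr2 and sex-linked genes. A cluster was named where at least 3 of a type's markers, and at least 50% of them, were raised and no other type had more markers among its 10 leading genes. UMIs were summed per library and cell class and tested with edgeR 4.0.16 (quasi-likelihood test, TMM, filterByExpr, Benjamini-Hochberg over all genes tested, threshold 0.05). DESeq2 1.42.0 was an alternative. Comparisons of cell classes within mice had the library as a block. The median UMIs per cell were 5234 to 7457 by library.

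Not all 10 members were named in every comparison. From each list at most 4 called genes with the greatest absolute log2 fold change were named. For each member the 3 genes with the highest r were named. The members and lists were chosen with earlier results of these data known. The alternatives were other normalization, filters, tests, doublets, gates, clusterings and single libraries left out. The code was tested on simulated data. All 4 libraries were used.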

Additional observations from a re-analysis of the deposited data

Results flagged for a closer look

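Fosl2 had mean log2 ratios of opposite sign in the genotypes when the Tcf7/Slamf6 gate was set against the Pdcd1/Lag3 gate of CD8+ Tc. The mean log2 ratio of CPM + 1 was -0.20 in the libraries labelled Havcr2fl/fl;E8icre/+ and 0.48 in those labelled Havcr2fl/fl, with -0.0022 and -0.40 in the former 2 libraries and 0.70 and 0.26 in the latter 2. The library labelled Havcr2fl/fl;E8icre/+ replicate 1 was thus close to 0, and the negative mean rests on replicate 2. The difference was not tested, and it rests on 6 to 32 Fosl2 UMIs per sum. Such a pattern was sought among all tested members in each comparison of cell classes. The share of all genes that show it was not counted.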

How the results depend on the processing

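Of 452 member differences between genotypes recomputed under alternatives, 407 kept their direction and none passed the threshold, while 45 changed sign. With single libraries left out in CD8+ Tc, Maf ran from -0.48 to 0.13, Fosb from -0.30 to 1.20, Jund from -0.087 to 0.15, Fosl2 from -0.38 to 0.22, Junb from -0.24 to 0.042 and Irf4 from -0.89 to 0.20, in CD4+ Tc Junb from -0.14 to 0.14, Jund from -0.17 to 0.23, Maf from -0.36 to 0.17 and Fosl2 from -1.06 to 0.11. Outside Tc, Fos ran from -0.69 to 0.75, Jun from -0.77 to 0.20, Fosb from -0.057 to 1.88, Fosl2 from -0.99 to 1.75, Junb from -0.54 to 0.14, Batf from -1.01 to 0.70, Atf3 from -1.50 to 1.16, Jund from -0.53 to 0.18 and Maf from -0.76 to 2.97. For CD8+ against CD4+ effects, Junb ran from -0.23 to 0.021, Jund from -0.10 to 0.14, Maf from -0.63 to 0.48, Batf from -0.23 to 0.023 and Jun from -0.25 to 0.41. In the Tcf7/Slamf6 gate, Maf ran from -0.41 to 0.014 and Fosl2 from -0.13 to 0.29, and in the Cx3cr1/Klrg1 gate Maf from -0.38 to 0.48. With doublets kept, Fosl2 in CD8+ Tc was 0.0031, Junb and Maf in CD4+ Tc were 0.10 and 0.042, and the difference of effects for Jun was -0.41. Junb in CD4+ Tc was 0.013 with no filter on low counts, and Jund there was -0.0021 with 2 UMIs asked of Cd8a and Cd8b1 or Cd4. With doublets by expected rate also removed, an alternative chosen after seeing the data, Fos and Maf outside Tc were 0.035 and -0.55 and Jund in the difference of effects was -0.0047, and it was -0.041 with the stricter cell filter. In the Tcf7/Slamf6 gate Maf was 0.11 with that filter and 0.10 with cycling cells, Fosl2 was -0.10 with cycling cells, and Junb in the Cx3cr1/Klrg1 gate was -0.033 with them. The cause was not tested.

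The same replicate numbers gave correlations of -0.098, -0.063 and -0.037 in CD8+, CD4+ and other cells, so they were not taken as pairs, and with the replicate block Junb in CD4+ Tc was 0.0052, Fosl2 outside Tc was 0.35 and 0 members were called. Of 6 members called between CD8+ and CD4+ Tc, 2 were called with no replicate block, which here means that the library was not used as a block. Of 2 in the Tcf7/Slamf6 gate, 0 were called with DESeq2, the stricter filter or no replicate block, 1 with no filter, and 0 to 2 with single libraries left out. Of 1 in the Cx3cr1/Klrg1 gate, 0 were called with DESeq2, no replicate block or cycling cells, 2 with no filter, and 0 to 1 with single libraries left out. Batf in TPEX-like cells was at 309 CPM at a higher resolution. Thinning to 1000 UMIs gave shares of Tc of 0.163% for Fosb, 1.20% for Fosl2, 0.843% for Jun, 13.1% for Junb, 35.8% for Jund, 17.0% for Batf, 16.0% for Maf and 1.39% for Irf4, which fewer UMIs bring by construction. Counts over all genes moved from 3 to between 0 and 89 in CD8+ genotypes, from 1 to between 0 and 45 in CD4+, from 0 to as many as 97 outside Tc and from 2 to between 0 and 55 for the difference of effects. Between CD8+ and CD4+ Tc they moved from 2519 to 1500 with DESeq2 and 1028 with no replicate block. With the same alternatives they moved from 985 to 456 and 490 in the Tcf7/Slamf6 gate, and from 458 to 217 and 175 in the Cx3cr1/Klrg1 gate. Counts also rose, to 3066 between CD8+ and CD4+ Tc with no filter on low counts. With cycling cells they rose to 1359 in the Tcf7/Slamf6 gate and 905 in the Cx3cr1/Klrg1 gate. Fos, Fosb and Atf3 were limited by depth, with 25 or fewer UMIs of Fos per library in Tc.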

Other observations

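Irf4 and Batf were set side by side in single CD4+ Tc thinned to 2000 UMIs. An Irf4 UMI was found in 6.67%, 5.41%, 4.65% and 6.74% of cells with a Batf UMI and in 3.45%, 3.48%, 2.70% and 2.96% of cells without one, higher in 4 of 4 libraries. Thinned cells share a UMI total but not a state, and each first share rests on 4 to 12 cells, so this is a description. In CD8+ Tc the order differed between libraries. The Irf4 shares were 1.81%, 1.75%, 0.662% and 4.90% with a Batf UMI and 2.88%, 1.53%, 1.56% and 3.54% without. Maf shares there were higher with a Batf UMI in 4 of 4 libraries, at 9.59%, 12.7%, 15.2% and 11.5% against 8.83%, 10.2%, 10.9% and 8.46%. The order in 4 of 4 libraries is thus not particular to Irf4. In CD4+ Tc, Maf was at 60.0% against 60.2% in the library labelled Havcr2fl/fl;E8icre/+ replicate 1 and higher with a Batf UMI in the others.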
